A study of Drosophila melanogaster with 3 samples.

Results

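The regions described are 153 binding summits of the transcription factor D (Dichaete) that lie at the starts of non-coding RNA genes. They were taken from the 5047 summits on the X, 2L, 2R, 3L, 3R and 4 arms of the Drosophila melanogaster dm6 genome in the authors' list of reproducible peaks (called IDR peaks, after the irreproducible discovery rate used to choose them). A summit, the highest point of a peak, was kept when it lay within 500 bp of the start of an annotated non-coding RNA or microRNA hairpin gene and over 500 bp from every protein-coding transcript start. Within the IDR list position alone chose the members. The list itself was cut by height, since the 564 pooled regions that met the positional rule and were not in it had signals of at most 187. D was mapped by chromatin immunoprecipitation with sequencing in 1 group of 3 biological replicates of whole embryos aged 0 to 14 hours, of mixed sex. All came from 1 transgenic line that carries D with green fluorescent protein (GFP) at its C-terminal end, and the antibody was against GFP. There was no second genotype, age or treatment, and no sample without the fusion protein is among those compared. Because whole embryos were used, strong binding in few cells and weak binding in many cells cannot be told apart.

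D is a SoxB-class protein that binds DNA through an HMG domain and bends it, and it acts in segmentation and in the early nervous system. Long non-coding RNAs (lncRNAs) and antisense RNAs (asRNAs) are transcripts without an annotated protein, and many are made near or inside protein-coding genes. A microRNA (miRNA) is cut from a hairpin within a longer primary transcript, so the annotated start of a hairpin gene is the base of the hairpin and not the promoter of its primary transcript. Some non-coding genes are hosts for smaller RNAs: Uhg genes carry small nucleolar RNAs (snoRNAs) in their introns, and some lncRNA genes contain miRNA hairpins.

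The sequences reaching 50 bp to each side of 6 of the highest member summits are shown because these regions head the set and differ in the short motifs they hold. They are read on the plus strand of dm6. Capitals mark the core of the Sox site (ACAAT), the TATA box letters TATAAA and the initiator core TCAGT on either strand, and a match is a description of letters only. The window at lncRNA:CR31840 is chr2L:14024039-14024139, and that at lncRNA:CR31044 is chr3R:29214399-29214499. The window at lncRNA:CR45595 is chr3R:11780275-11780375, and that at lncRNA:CR46036 is chr3R:17700511-17700611. The window at asRNA:CR44429 is chrX:15298444-15298544, and that at lncRNA:CR46102 is chr3R:25738142-25738242. No capitals stand in the windows of CR31840, CR31044 and CR46102, and the only Sox core among the 6 is in the window of CR44429.
CR31840: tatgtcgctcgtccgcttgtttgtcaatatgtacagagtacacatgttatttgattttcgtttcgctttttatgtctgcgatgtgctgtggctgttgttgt
CR31044: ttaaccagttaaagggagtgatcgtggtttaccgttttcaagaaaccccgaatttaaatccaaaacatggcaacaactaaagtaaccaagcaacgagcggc
CR45595: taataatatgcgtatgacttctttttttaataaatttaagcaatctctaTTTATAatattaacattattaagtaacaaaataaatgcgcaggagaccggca
CR46036: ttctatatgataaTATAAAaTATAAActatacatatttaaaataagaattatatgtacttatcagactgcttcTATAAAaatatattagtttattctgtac
CR44429: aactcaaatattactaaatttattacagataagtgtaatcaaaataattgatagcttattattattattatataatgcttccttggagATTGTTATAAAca
CR46102: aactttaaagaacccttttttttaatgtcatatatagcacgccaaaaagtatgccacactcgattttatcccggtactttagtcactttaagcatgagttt

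The same windows around 4 summits at hairpin starts are shown for comparison. They are chr2L:10752054-10752154 for mir-9378, chrX:12665556-12665656 for mir-9377, chrX:3777379-3777479 for mir-4962 and chrX:22833730-22833830 for mir-2491. The window of mir-2491 holds 2 Sox cores, that of mir-9377 holds 1, and the other windows hold none.
mir-9378: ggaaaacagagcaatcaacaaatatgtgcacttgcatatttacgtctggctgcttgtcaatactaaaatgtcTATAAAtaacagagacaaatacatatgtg
mir-9377: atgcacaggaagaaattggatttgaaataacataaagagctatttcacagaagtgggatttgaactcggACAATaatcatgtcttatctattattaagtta
mir-4962: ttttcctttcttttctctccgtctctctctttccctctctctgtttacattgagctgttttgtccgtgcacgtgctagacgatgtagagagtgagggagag
mir-2491: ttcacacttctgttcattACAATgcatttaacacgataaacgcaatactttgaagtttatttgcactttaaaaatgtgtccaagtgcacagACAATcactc

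For 5 miRNAs the mature products are printed from the RefSeq annotation of the same build, with the seed (bases 2 to 8) in capitals. They are bantam, whose hairpin start has a member, and 4 miRNAs inside bound lncRNA genes. The mir-279 and mir-996 products have the same seed, and the other 3 seeds differ from it and from each other.
mir-279-RA: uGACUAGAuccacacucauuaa
mir-996-RA: uGACUAGAuuucaugcucgucu
mir-ban-RA: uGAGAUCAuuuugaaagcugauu
mir-282-RA: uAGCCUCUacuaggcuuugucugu
mir-315-RA: uUUUGAUUguugcucagaaagc

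The deposited signal, the authors' own measure of peak height on a scale that is not stated, ran from 188 to 2957 over the members in the pooled list, with a median of 328. Replicate 1 stood apart from the other replicates. A member had a region within 200 bp of its summit in the whole list of replicate 1 in 89 of 153 cases, against 153 in replicate 2 and 151 in replicate 3. The same holds for the whole list: 56.5% of all IDR summits had such a region in replicate 1, 98.3% in replicate 2 and 97.9% in replicate 3, next to 58.2%, 100% and 98.7% of the members. Each replicate list held 30000 peaks and background regions, with a median signal of 28.2 in replicate 1, 35.0 in replicate 2 and 43.2 in replicate 3. The number of reads behind each library is unknown, so signal is compared by rank or within a list. A member's rank in a replicate is that of the highest region within 200 bp of its summit, so neighbouring summits can share a rank.

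lncRNA starts made up most of the set. The nearest non-coding start belonged to an lncRNA for 133 members (86.9%), to an asRNA for 10 and to a miRNA hairpin or one of its mature products for 8. The remaining 2 were at Uhg4, a snoRNA host gene, and at sncRNA:204. The members lay at 158 annotated non-coding entries, of which 141 had 1 member and 17 had 2. Of these 158, 13 were entries of mature miRNAs, which repeat hairpin genes. By arm, 42 members (27.5%, 95% interval 20.6 to 35.2) were on 2L, against 18.9% of all other IDR summits and 24.8% of the non-coding starts that could have had a member. On X there were 19 (12.4%, against 17.6% of other summits and 14.8% of such starts) and on 3L 26 (17.0%, against 23.3% and 20.4%). The other counts were 30 on 2R, 35 on 3R and 1 on 4. Shares carry exact (Clopper-Pearson) binomial intervals, which cover counting only.

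Summits were denser around annotated non-coding starts than farther away, but they did not gather at the annotated start itself. How exactly these starts are annotated was not tested. The members' distances from the start were spread evenly: 30 were within 100 bp, and the next bins of 100 bp held 29, 30, 31 and 33. Their median distance was 255 bp (interquartile range 159 to 384). Among the 1754 IDR summits at protein-coding starts the median was 156 bp, and 72.2% (70.0 to 74.3) lay within 250 bp, against 48.4% (40.2 to 56.6) of the members. Per length of sequence over 500 bp from protein-coding starts, there were 70.4 summits per Mb (59.7 to 82.5) within 500 bp of a non-coding start. The density was 55.7 per Mb (45.9 to 66.9) at 500 to 1000 bp and 39.5 per Mb (33.4 to 46.2) at 1000 to 2000 bp, next to 27.8 per Mb over all such sequence of the 6 arms. Around protein-coding starts it was 142 per Mb within 100 bp and 53.3 per Mb between 400 and 500 bp, next to 37.7 per Mb over the whole arms.

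**Figure D1:**
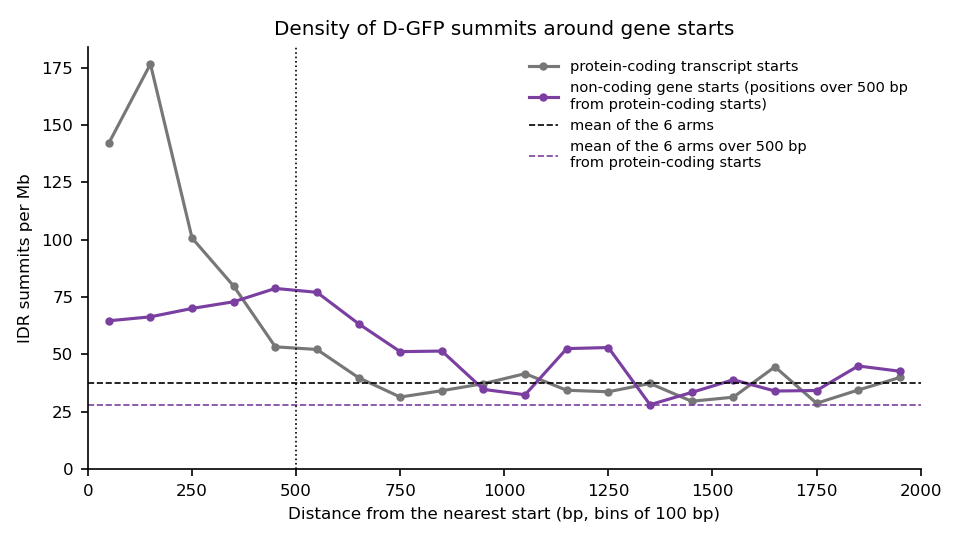
IDR summits per Mb (vertical axis) in bins of 100 bp by distance from the nearest start (horizontal axis), for non-coding gene starts (purple) and protein-coding transcript starts (grey). Dashed lines are the means of the 6 arms over all positions (black, 37.7 per Mb) and over positions more than 500 bp from protein-coding starts (purple, 27.8 per Mb), and the dotted line is the 500 bp limit. The grey curve falls from 142 per Mb in the first bin to 53.3 per Mb in the fifth, whereas the purple curve goes from 64.6 to 78.8 per Mb.

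The share of members upstream of the start was higher within 250 bp of it than beyond. Of all members, 86 (56.2%, 47.97 to 64.2) were upstream of the start along the strand of the gene and 67 were downstream. Within 250 bp, 53 of 74 (71.6%, 59.9 to 81.5) were upstream, whereas beyond 250 bp 33 of 79 (41.8%, 30.8 to 53.4) were. Of those within 100 bp, 19 of 30 (63.3%, 43.9 to 80.1) were. At protein-coding starts 81.6% of the summits within 250 bp and 81.1% of those beyond were upstream, and 68.7% of those within 100 bp. These shares are descriptions, since the regions are not replicates.

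Of the members, 105 were intergenic with respect to protein-coding genes, 46 were in introns, 2 were in untranslated exons and 0 were in coding exons. The 48 members inside protein-coding genes (31.4%) lay in 46 such genes. The non-coding start itself was inside a protein-coding gene for 47 members, miRNA starts included. Its strand was opposite to the gene's for 31 of these (66.0%, 50.7 to 79.1). Of the 899 lncRNA and asRNA starts inside such genes that could have had a member, 722 were antisense to a host. Of the 37 among them that had a member, 28 were. A member was at 3.88% (2.59 to 5.56) of these 722, and at 5.08% (2.35 to 9.43) of the 177 sense ones. The nearest protein-coding start was 509 to 32906 bp away, with a median of 3150 bp. It was within 1000 bp for 23 members and within 5000 bp for 102.

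The highest member was at lncRNA:CR31840, with its summit 10 bp inside the annotated transcript and 2912 bp from hll, the nearest protein-coding start. Its pooled signal of 2957 ranked 8 of 5047. Its rank was 89 in replicate 1, 6 in replicate 2 and 5 in replicate 3, so it was among the highest regions of each list and lowest in replicate 1.

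The second, at lncRNA:CR44339 (pooled signal 2468), was 186 bp upstream of the start and 4187 bp from Psc, which encodes a Polycomb group protein. Its ranks were 23 and 15 in replicates 2 and 3, and replicate 1 had no region within 200 bp. The third, at lncRNA:CR31044 (2156), was 113 bp upstream of the start and ranked 77, 21 and 35 in replicates 1, 2 and 3. The CR31044 gene contains the hairpins of mir-279 and mir-996.

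The member at lncRNA:CR45595 had a pooled signal of 1497 and ranked 118, 134 and 109 in replicates 1, 2 and 3. It was 316 bp upstream of the start and was the most even across replicates of the first 5. At lncRNA:CR46036, whose start is antisense within osa, a subunit gene of the Brahma chromatin remodelling complex, the signal was 1473. That summit was at ranks 102 and 84 of replicates 2 and 3, and replicate 1 had no region there.

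Several of the next members were at RNAs antisense to protein-coding genes. asRNA:CR44429 (1276; ranks 96, 180 and 235) lies in gce, which encodes a bHLH-PAS juvenile hormone receptor. lncRNA:CR46102 (1246; ranks 90, 239 and 221) lies in LpR2, a lipophorin receptor gene. lncRNA:CR44409 (1232; ranks 172, 202 and 188) lies in Dif, an NF-kappaB gene of the immune response. All 3 ranked higher in replicate 1 than in the other replicates, unlike CR31840.

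The other members among the first 12 were at lncRNA:CR44380 (signal 1149), at lncRNA:CR45997 within mbl, the muscleblind splicing factor gene (1055), at lncRNA:CR46535 (1029) and at lncRNA:CR45668 (1008). The last was 654 bp from Act5C, a cytoplasmic actin gene. All 12 were among the 5047 highest regions of replicates 2 and 3, and 10 were in replicate 1. The 12 were chosen by pooled height, which comes from these same replicates. Of the IDR summits outside the set in the highest quartile by signal, 99.8% and 99.7% were so in replicates 2 and 3. In replicate 1 it was 65.8%. The Sox core was within 100 bp of 3 of the 12 summits and TATAAA of 7, where all IDR summits have them at 52.1% and 37.4%. Among the 46 members in the highest quartile by signal, 23 had each.

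**Figure D2:**
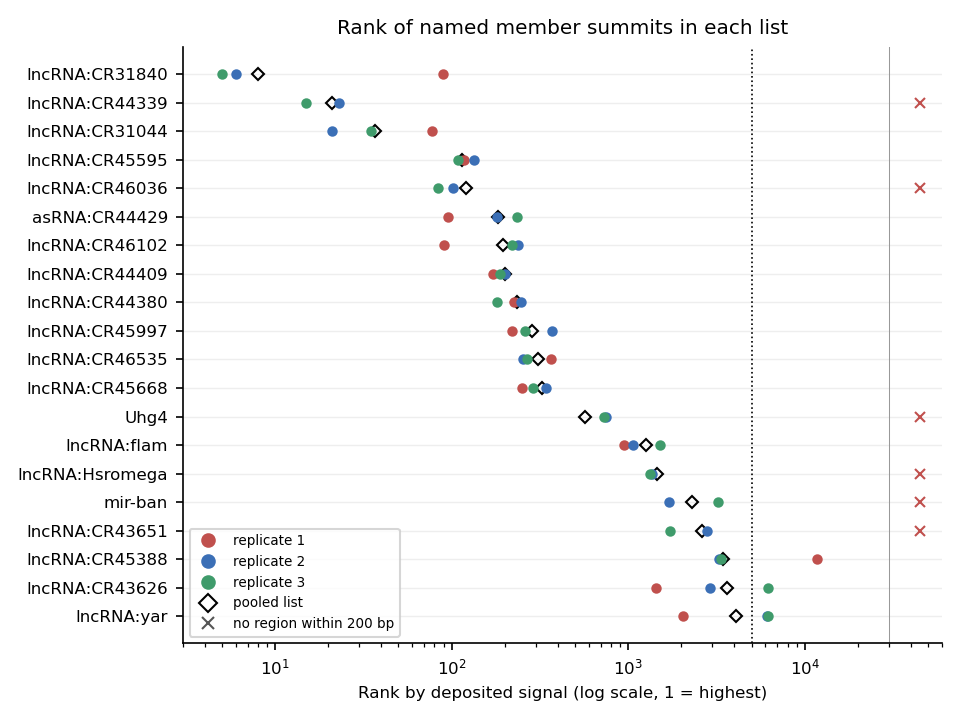
Rank of named members (rows) by deposited signal on a log axis, in replicates 1 (red), 2 (blue) and 3 (green) and in the pooled list (open diamonds). The dotted line is rank 5047, the solid line is the end of each list at 30000, and a cross marks a replicate with no region within 200 bp. All crosses shown are in replicate 1, among them those of CR44339, CR46036, Uhg4 and Hsromega.

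A set of 10 members was at asRNA starts, with pooled signals of 188 to 1276 and a median of 529. Only the member at CR44429 was recovered in replicate 1 (1 of 10), whereas 9 of 10 were recovered in replicate 2 and 9 of 10 in replicate 3. Recovered means that the replicate had a summit within 200 bp among its 5047 highest. Over all IDR summits the shares recovered in replicates 1, 2 and 3 were 50%, 85.2% and 83.9%. The others with signals over 700 were asRNA:CR45908 in CG1943 (846) and asRNA:CR46044 in Septin2, a septin gene (770). Neither had a region in replicate 1. CR45908 was at ranks 501 and 394 of replicates 2 and 3, and CR46044 at 431 and 475. At lncRNA starts 74 of 133 members (55.6%) were recovered in replicate 1, 112 in replicate 2 and 106 in replicate 3. The difference between these kinds of RNA was not tested.

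Bound lncRNA genes contained 6 miRNA hairpins on the same strand. These genes were found among the bound ones after their values were seen. The hairpins of mir-279 and mir-996, which act in sense organ development, started 1023 and 2622 bp into CR31044, whose summit was the third highest of the set. mir-14, a regulator of cell survival, started 918 bp into lncRNA:CR43651, which had a summit 17 bp past its start (signal 302; no region in replicate 1, rank 2800 in replicate 2 and 1728 in replicate 3). mir-282 started 1682 bp into lncRNA:CR43626 (238; ranks 1442, 2928 and 6241). mir-315 started 8398 bp into lncRNA:CR45388 (248; ranks 11676, 3265 and 3337). The last hairpin, mir-4951, was 20589 bp from the start of Hsromega.

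CR31044 thus stood far above the other hairpin-containing genes in signal and ranked within the first 100 in every replicate. CR43651 lacked a region in replicate 1, CR43626 was highest in replicate 1 by rank, and CR45388 was lowest there.

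Only 6 hairpin genes had a member within 500 bp of the hairpin start itself, and 7 members lay there. mir-9378, in an intron of CG17124, had 2 of them. The higher one (signal 982, 166 bp from the nearest mature product) ranked 565, 257 and 234 in replicates 1, 2 and 3. The lower one (203) had no region in replicate 1, and its highest region of replicate 3 within 200 bp was the same as that of the higher one.

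The next was mir-9377, in an intron of Tis11, an mRNA-decay factor gene (767; no region in replicate 1, ranks 645 and 522 in replicates 2 and 3). The others were mir-4962 within Tlk, a kinase gene (370), mir-2491 (338) and mir-4974 within CG8671 (225). Of these, mir-2491 had a region in replicate 1, at rank 1154, and mir-4962 and mir-4974 had none.

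The sixth hairpin was that of bantam (mir-ban), a miRNA that promotes growth and blocks cell death. Its summit lay 435 bp past the hairpin start and had a pooled signal of 331. Its ranks in replicates 2 and 3 were 1713 and 3249, and replicate 1 had no region there. A summit 3682 bp away, at lncRNA:CR43423, had a signal of 251.

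In the list of named long non-coding RNAs, 3 of 9 starts had a member, next to 127 of all 1903 lncRNA starts (6.67%). The list is small and was chosen with earlier results of these data known. At flam, the flamenco piRNA cluster that silences transposons in ovarian follicle cells, the summit was 184 bp upstream of the start. Its pooled signal was 491, and it ranked 944, 1069 and 1509 in replicates 1, 2 and 3, so all lists held it. At Hsromega, the heat-shock-inducible RNA that forms the omega speckles, the summit was 187 bp past the start (449; ranks 1373 in replicate 2 and 1323 in replicate 3, no region in replicate 1). At yar, the RNA between the yellow and achaete genes, it was 70 bp upstream of the start (219; ranks 2036, 6142 and 6239). Of these 3, yar was the lowest, and only in replicate 1 was it among the 5047 highest regions. The starts of let7C, acal, noe, cherub, CRG and sphinx had none, with nearest summits between 1515 bp (acal) and 21951 bp (let7C) away.

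Of all non-coding starts 4.99% had a member, and among the 7 snoRNA host genes Uhg4 had 1. It was 66 bp upstream of the start, had a signal of 764 and was at ranks 754 and 732 of replicates 2 and 3, with no region in replicate 1. Uhg4 holds 7 annotated snoRNA genes. Uhg8 had a summit 212 bp away that was not kept because CG5199, a protein-coding gene, starts 217 bp from it. Uhg1, Uhg2, Uhg3, Uhg5 and Uhg7 had no summit within 500 bp.

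The remaining lists were small, and of all hairpin starts 2.36% had a member, so lists of this size hold few by that share. No member was at roX1 or roX2, the RNAs of dosage compensation, where the nearest summits were 5929 and 1480 bp away. None was at the 5 bithorax complex genes bxd, iab4, iab8, mir-iab-4 and mir-iab-8. None was at the hairpin starts of 20 neural and sense organ miRNAs, of mir-1 and mir-133 of muscle, of the 3 let-7 complex miRNAs or of the 8 miRNAs of the early zygotic cluster around mir-309. Of 10 growth and survival miRNAs, bantam alone had one. Among the neural miRNAs the closest summit was that of mir-92a, 560 bp away, and it lay 180 bp from the start of jigr1.

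Of all 3167 non-coding entries that could have had a member, 158 (4.99%, 4.26 to 5.81) did. These 3167 include 471 mature miRNA entries, which repeat hairpin genes, and without them the share was 5.38% of 2696 (4.56 to 6.30). For protein-coding genes the share with an IDR summit within 500 bp of any start was 15.3%. The shares are not adjusted for the length of sequence searched. A non-coding start counted if any position within 500 bp of it was over 500 bp from protein-coding starts. lncRNA starts had one in 127 of 1903 cases (6.67%, 5.59 to 7.89), asRNA starts in 10 of 466 (2.15%, 1.03 to 3.91) and hairpin starts in 6 of 254 (2.36%, 0.872 to 5.07). Counted by the same rule, 9 of 286 tRNA, 6 of 267 snoRNA and 3 of 32 snRNA genes had a summit. No pseudogene of 265 had one, which allows up to 1.38%. lncRNA and asRNA starts outside protein-coding genes had a member in 100 of 1470 cases (6.80%, 5.57 to 8.21), and those inside in 37 of 899 (4.12%, 2.91 to 5.63). lncRNA and asRNA genes with and without a member were of like annotated length, with medians of 688 and 718 bp.

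**Figure D3:**
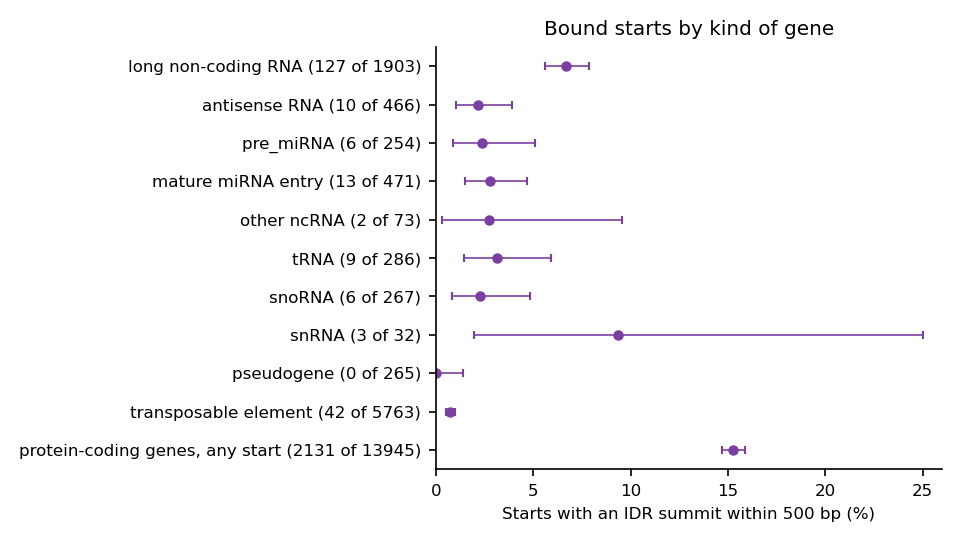
Share of gene starts with an IDR summit within 500 bp, by kind of gene (rows), with exact 95% binomial intervals. Except for protein-coding genes, the summit also had to lie over 500 bp from protein-coding starts. lncRNA starts, at 6.67%, were above asRNA starts (2.15%) and hairpin starts (2.36%) and below protein-coding genes (15.3%), and the interval for the 32 snRNA genes is wide.

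The members' median height lay among those of the other classes. It was 328, next to 346 at protein-coding starts, 303 in other introns, 279 in other intergenic sequence and 310 over all IDR summits. In the highest quartile of the IDR list by signal were 46 members (30.1%, 22.9 to 38.0), where the whole list has 25%. Members inside protein-coding genes had a median of 439, and intergenic members one of 300. In the pooled list of peaks and background regions, 717 regions followed the same positional rule, and 153 of them (21.3%, 18.4 to 24.5) were in the IDR list, against 16.8% of all regions and 26.8% of those at protein-coding starts.

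In each replicate the recovered share of the members lay close to that of all IDR summits. In replicate 1, 77 members (50.3%, 42.1 to 58.5) were recovered, and 50% of all IDR summits were. In replicate 2 it was 131 (85.6%) against 85.2%, and in replicate 3 it was 123 (80.4%) against 83.9%. All 3 replicates recovered 58 members (37.9%, 30.2 to 46.1), against 38.5% of all IDR summits. Without replicate 1, the other replicates both recovered 113 members (73.9%), against 74.9% of all IDR summits. In replicates 2 and 3 and not in 1 were 55 members (35.9%, against 36.5% of all IDR summits). None of the replicates recovered 7 (4.58%, 1.86 to 9.20), against 2.02% of all IDR summits.

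The difference in recovered share between members and other IDR summits was 0.327 percentage points in replicate 1, 0.415 in replicate 2 and -3.65 in replicate 3. Its mean was -0.969 ± 2.32 (SD, n = 3; exact two-sided sign-flip permutation test over replicates, p = 1). Against summits at protein-coding starts the differences were 11.8, -2.41 and -3.42 points in replicates 1, 2 and 3 (exact permutation p = 1). Against other intergenic summits they were -15.7, 3.53 and -1.22 points (exact permutation p = 0.75), and against other introns -1.995, 1.04 and -5.28 points (exact permutation p = 0.50). With 3 replicates the smallest p this test can give is 0.25. Against protein-coding starts the sign in replicate 1 was opposite to that in replicates 2 and 3, and against other intergenic summits the sign in replicate 2 stood alone.

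**Figure D4:**
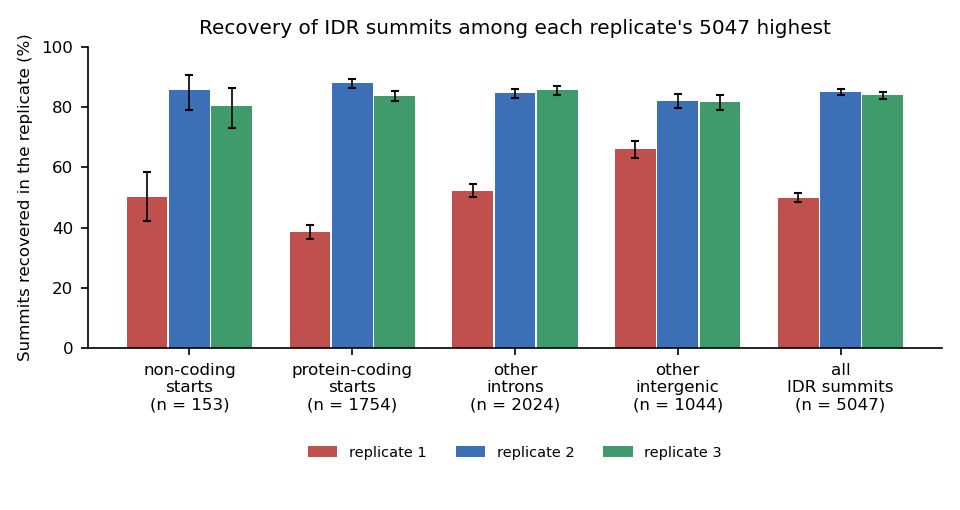
Share of IDR summits with a summit within 200 bp among the 5047 highest of each replicate (bars; error bars are exact 95% binomial intervals), by class. Replicate 1 is lowest in every class, at 50.3% for non-coding starts, 38.5% for protein-coding starts and 66.0% for other intergenic summits, while replicates 2 and 3 lie above 80% in all classes shown.

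The recovered share differed with distance from the start mainly in replicate 1. Of members within 250 bp of the start replicate 1 recovered 29 of 74 (39.2%), and of those farther away 48 of 79 (60.8%). It recovered 50% of all IDR summits. In replicate 2 the shares were 85.1% and 86.1%, and in replicate 3 they were 81.1% and 79.7%. The difference by distance thus rests on 1 replicate and was not tested. The 46 members in the highest quartile were all recovered in replicates 2 and 3, and 28 of them (60.9%) in replicate 1, against 65.8% of the other IDR summits of that quartile. Of the 40 in the lowest quartile, replicates 1, 2 and 3 recovered 32.5%, 55% and 45%, against 33.7%, 57.4% and 56.1% of the other summits there.

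The share with the Sox core ACAAT differed little between the summits and the windows beside them. These windows also differed in base composition, given below, whose part in the Sox counts was not tested. The core was within 100 bp of 77 member summits (50.3%, 42.1 to 58.5), against 52.1% of all IDR summits. In windows of the same width centred 1000 bp to the left and right of the members it was found in 48.4% and 49.7%, and at non-coding starts without a summit in 44.96%. The longer forms ACAATG and AACAAT, which contain the core, were at 16 (10.5%) and 42 (27.5%) members. In the flanks ACAATG was in 13.7% and 16.3%, and AACAAT in 22.9% and 23.5%.

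The TATA box letters TATAAA were at 61 member summits (39.9%, 32.1 to 48.1), in 22.2% and 21.6% of the flanking windows and at 24.0% of non-coding starts without a summit. Over all IDR summits they were at 37.4%. The initiator core TCAGT was at 63 (41.2%, 33.3 to 49.4) and in 26.8% and 30.1% of the flanks. It was at 34.5% of non-coding starts without a summit and at 34.7% of all IDR summits. Beside these counts stands the base composition: the median GC content was 33.8% at the members and 41.8% and 40.8% in the left and right flanks. Its part in the TATAAA and TCAGT counts was not tested.

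At their usual place relative to the annotated start, whose exactness was not tested, core promoter letters were rare. TATAAA on the gene's strand 45 to 15 bp before the start was found at 7 of 137 bound lncRNA and asRNA starts (5.11%, 2.08 to 10.2), at 3.41% of those without a summit and at 7.77% of protein-coding starts. TCAGT within 10 bp of the start was at 9 of 137 (6.57%), at 5.02% of those without a summit and at 13.1% of protein-coding starts.

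The other motifs were searched on both strands too. GAGAG, bound by GAGA factor, was at 36 members (23.5%), in 23.5% of each flank and at 23.0% of all IDR summits. CAGGTA, the site of the early activator Zelda, was at 2 (1.31%), in 4.58% of each flank and at 3.88% of all IDR summits. The POU site ATGCAAA was at 10 (6.54%), against 7.81% of all IDR summits, and the Grainyhead letters AACCGG were at 2 (1.31%), against 3.13%. The CA repeat CACACACA was at 11 (7.19%, 3.64 to 12.5), in 4.58% and 5.88% of the flanks and at 4.04% of all IDR summits. The DREF site TATCGATA and the promoter motif GGTCACAC were at 0 members, which allows up to 2.38% for each. Over all IDR summits they were at 1.84% and 0.931%, and at protein-coding starts at 4.85% and 2.17%. Other introns had 0.247% and 0.346%, and other intergenic summits 0.287% and 0.192%.

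**Figure D5:**
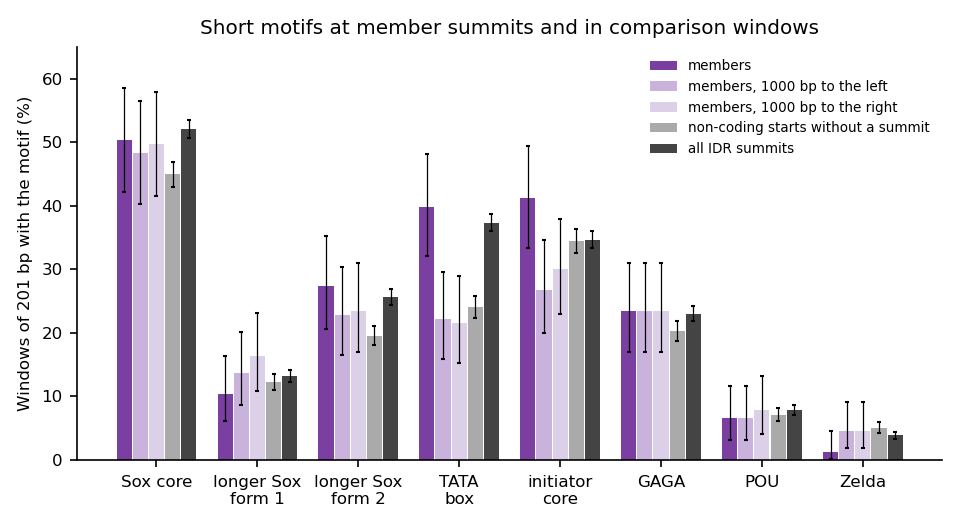
Share of windows reaching 100 bp to each side that hold each short motif on either strand (bars; error bars are exact 95% binomial intervals), at the 153 members, in their 2 flanking windows, at non-coding starts without a summit and at all IDR summits. The bars for the Sox core are near each other, at 50.3%, 48.4%, 49.7%, 44.96% and 52.1%, whereas those for the TATA box are 39.9% at the members and 22.2% and 21.6% in the flanks.

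Many members had other binding nearby. Another IDR summit lay within 5 kb of 106 members (69.3%, 61.3 to 76.5), against 58.4% of all IDR summits. By class the share was 63.3% in other introns, 59.8% in other intergenic sequence and 51.1% at protein-coding starts. Between members, 13 runs with steps of at most 5 kb held 31 members. The longest run had 4 members over 4991 bp on 3R at lncRNA:CR45639, CR45637, CR45642 and CR45641, with signals of 352, 300, 315 and 200 in that order. None had a region in replicate 1, CR45639 had none in replicate 3 either, and CR45641, at rank 5421 in replicates 2 and 3, was recovered in none.

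In a run of 3 members, lncRNA:CR31840 and lncRNA:CR45352 shared 1978 bp on 2L, and the lowest of them had a signal of 383. A further 3 were at lncRNA:CR44867 and lncRNA:CR44868, both antisense within beat-Ib, a cell adhesion gene of the Beaten path family, with signals of 995, 685 and 618. Their ranks were 399, 862 and 538 in replicate 1, 352, 944 and 983 in replicate 2, and 237, 656 and 997 in replicate 3, so all lists held this run. The last run of 3 was at lncRNA:CR44677 and lncRNA:CR44676. Its highest member (936; ranks 315, 368 and 380) was 4321 bp from the hairpin of mir-9a, a miRNA of sense organ precursors.

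At the limits of the rule, the member farthest from its start was 495 bp away, at lncRNA:CR45707 (signal 203). The nearest summits not kept were at 507 bp from lncRNA:CR44828 (378), 508 bp from lncRNA:CR32660 (584) and 516 bp from lncRNA:CR44619 (1659). The member closest to a protein-coding start was that of asRNA:CR46044, 509 bp from the start of Septin2. A summit at lncRNA:CR45618 (719) was left out at 498 bp from the start of prtp, and 72 IDR summits lay within 500 bp of both kinds of start.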

How the data were processed

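Per the deposited file lists, the authors made a list of peaks and background regions for every replicate and a pooled one, using a control alignment, and derived the IDR list from them. Aligner, peak caller, IDR threshold and the control's genotype were not given in the sources used here. Each region has a deposited signal, which is the authors' own height measure and was used only to rank and describe regions. Per the labels, chromatin was sonicated, with a stated size range of 200 to 800. Summits were computed from each interval's start and offset. Lists on the dm3 build were not used here.

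Starts came from Ensembl release 115. Hairpin genes carry the biotype ncRNA there, with pre_miRNA as the transcript biotype, and entries of mature miRNAs repeat the hairpins and were counted under their own kind. Non-coding starts are gene starts, and protein-coding starts are those of all protein-coding transcripts. A non-coding gene could have a member if any position within 500 bp of its start was over 500 bp from protein-coding starts. Sequence was Release 6 of the genome, and mature miRNAs came from RefSeq. The reported values are counts, medians and exact 95% binomial intervals (Poisson for densities), and the 1 test is the exact sign-flip permutation over the 3 replicates. The rule, the recovery, the motif search and the test were checked on simulated data. The genes named are the 12 of highest pooled signal, the hairpin genes with a member, the bound genes of 9 lists with their unbound members (bft, msa, PS4 and mir-263a were not matched) and runs of 3 or more members. Others were chosen after their values were seen. The members and lists were chosen with earlier results of these data known. Alternatives were other distances, start definitions, peak thresholds, motif windows and match distances, 1 summit per interval and leaving out each replicate. Leaving out the mature miRNA entries was added after seeing the data. Tools were Python 3.11.15, scipy 1.17.1, numpy 2.4.6, pandas 2.3.3 and matplotlib 3.10.9.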

Additional observations from a re-analysis of the deposited data

How the results depend on the processing

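With starts within 250 bp the number of members was 74, and with 1000 bp it was 267. The upper 50% of peaks by signal held 81, and keeping summits recovered in both remaining replicates gave 63 to 113. The share of non-coding starts with a summit was 2.75% at 250 bp, 8.56% at 1000 bp, 2.81% in the upper 50% and 1.96% to 3.76% without a replicate. These follow from the narrower or wider rule. The upstream share was 71.6% at 250 bp and 50.7% to 58.4% without a replicate. The share recovered in all replicates used was 28.4% at 250 bp, 60.5% in the upper 50%, 57.5% with whole replicate lists and 41.2% to 73.9% without a replicate. The share inside protein-coding genes was 40.7% in the upper 50% and 35.4% to 36.5% without a replicate. The median signal was 562 in the upper 50% and 399 to 430 without a replicate. The Sox core was at 30.1% within 50 bp, at 72.5% within 200 bp and at 41.3% to 48.7% without a replicate, and the median GC was 32.3% to 33.3% without a replicate. The share at hairpin starts was 2.99% to 6.19% without a replicate. The mean difference in recovery changed sign to 1.03 points at 1000 bp, 1.34 when over 1000 bp from protein-coding starts, 0.356 in the upper 50%, 0.160 with a match within 500 bp and 1.44 with whole lists. Without a replicate it was -1.66 to 0.371. With so few replicates this test cannot pass a 5% threshold in any setting. Where the construction does not show it, the cause was not tested. Leaving out mature miRNA entries gave 152 members. No paired analysis was possible because there is 1 group. Depth is unknown, so a start without a summit is not shown to be unbound.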
